A study of Mus musculus with 2 samples.

Results

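The Slc25 family holds the carrier proteins of the mitochondrial inner membrane, and 46 of its genes were read among 22180 mouse genes with a value. A gene was taken as a member when its probe set named exactly 1 gene and that gene's symbol starts with Slc25a. The values came from 2 arrays of CD8+ T cells, 1 of a culture given bezafibrate and 1 of a culture given dimethyl sulfoxide (DMSO), the drug's solvent. In both cultures naive mouse CD8+ T cells had been activated by beads coated with antibodies to CD3 and CD28 and given recombinant human interleukin-2 at 100 U/mL. Bezafibrate, a fibrate drug and an agonist of the PPARs (peroxisome proliferator-activated receptors), was kept at 30 µM for the whole culture, and expansion ran to day 13. The labels give no strain, genotype, sex or age of the mice, and say nothing of whether animals were pooled. The question was which genes differ in T cells that grow with this drug.

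The inner mitochondrial membrane is closed to most charged metabolites, and Slc25 proteins let them through, usually by exchanging one for another. Such exchange brings ADP and phosphate in and ATP out, moves fatty acids in as acylcarnitines, sends citrate out for lipid synthesis and shuttles reducing power as malate and aspartate. Activated T cells draw on these routes when they grow and when they turn to fatty acids as fuel. PPARs control genes of fatty acid oxidation, and the acylcarnitine carrier gene Slc25a20 is known as one of their targets in liver.

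With 1 array per group there was no spread between replicates, so no difference below carries an error or a p-value, and each ratio compares 2 arrays. Every value is a log2 signal, the log2 ratio is bezafibrate minus DMSO, and each member was read by a single probe set. Signals of different probe sets are not on one scale, so each carrier was set only against the background of its own array and against itself on the other array. In a whole culture, fewer cells that express a gene and less RNA per cell cannot be told apart. The olfactory and vomeronasal receptor genes, 1390 in number, gave the background, and a level above their 95th percentile, 4.68 on the bezafibrate array and 4.71 on the DMSO array, was called above background. All 5 listed CD8 T cell markers were above background on both arrays, from 8.61 to 11.05 with bezafibrate and from 8.91 to 11.10 with DMSO. Of the markers of other cells, 2 of 3 for CD4 T cells, 2 of 4 for B cells, 2 of 5 for macrophages and dendritic cells, 1 of 3 for natural killer cells and 0 of 3 for neutrophils were above background on both arrays. The brightest of these were Ighm at 8.72 with bezafibrate and 9.05 with DMSO, and Cd209a at 8.55 with bezafibrate, a log2 ratio of −0.45. Other Ighm probe sets had ratios from −0.73 to 0.33, and a second Cd209a probe set was within background, with a ratio of −0.12. Cd79a, Ms4a1, Lyz2, Adgre1 and Itgax were within background on both arrays. Summed over its markers, the log2 signal was 8.90 with bezafibrate and 9.23 with DMSO for B cells, 8.78 with bezafibrate and 9.18 with DMSO for macrophages and dendritic cells, and 6.29 with bezafibrate and 6.94 with DMSO for natural killer cells. For CD4 T cells it was 6.60 with bezafibrate and 6.37 with DMSO, with Cd4 itself within background on both arrays, and for neutrophils 4.93 with bezafibrate and 5.24 with DMSO. The B cell sum rested mainly on Ighm, and the macrophage and dendritic cell sum mainly on Cd209a. The natural killer sum rested mainly on Fcer1g, at 5.64 with bezafibrate and 6.57 with DMSO, a ratio of −0.93. Ncr1 and Klrb1c were within background on both arrays, with ratios of 0.06 and 0. The part of these other cell types in the carrier values was not tested.

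These cells read most of the family. Of the 46 carriers, 36 were above background on both arrays, against 51.5% of all genes, 1 (Slc25a2) on the bezafibrate array alone and 9 on neither. The carriers within background on both arrays were Slc25a14, Slc25a18, Slc25a21, Slc25a27, Slc25a31, Slc25a34, Slc25a41, Slc25a43 and Slc25a54. All 4 carriers of iron and glutathione, all 8 of nucleotides and cofactors and the acylcarnitine carrier were above background, whereas 5 of the 12 carriers of uncertain substrate were not. The class counts depend on the limit. At the receptor genes' 99th percentile (5.74 with bezafibrate and 5.73 with DMSO), Slc25a33 and Slc25a51 were within background on both arrays and Slc25a26 on the DMSO array. Slc25a47, Slc25a48 and Slc25a53, of uncertain substrate, were then within it on both arrays as well.

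**Figure D1:**
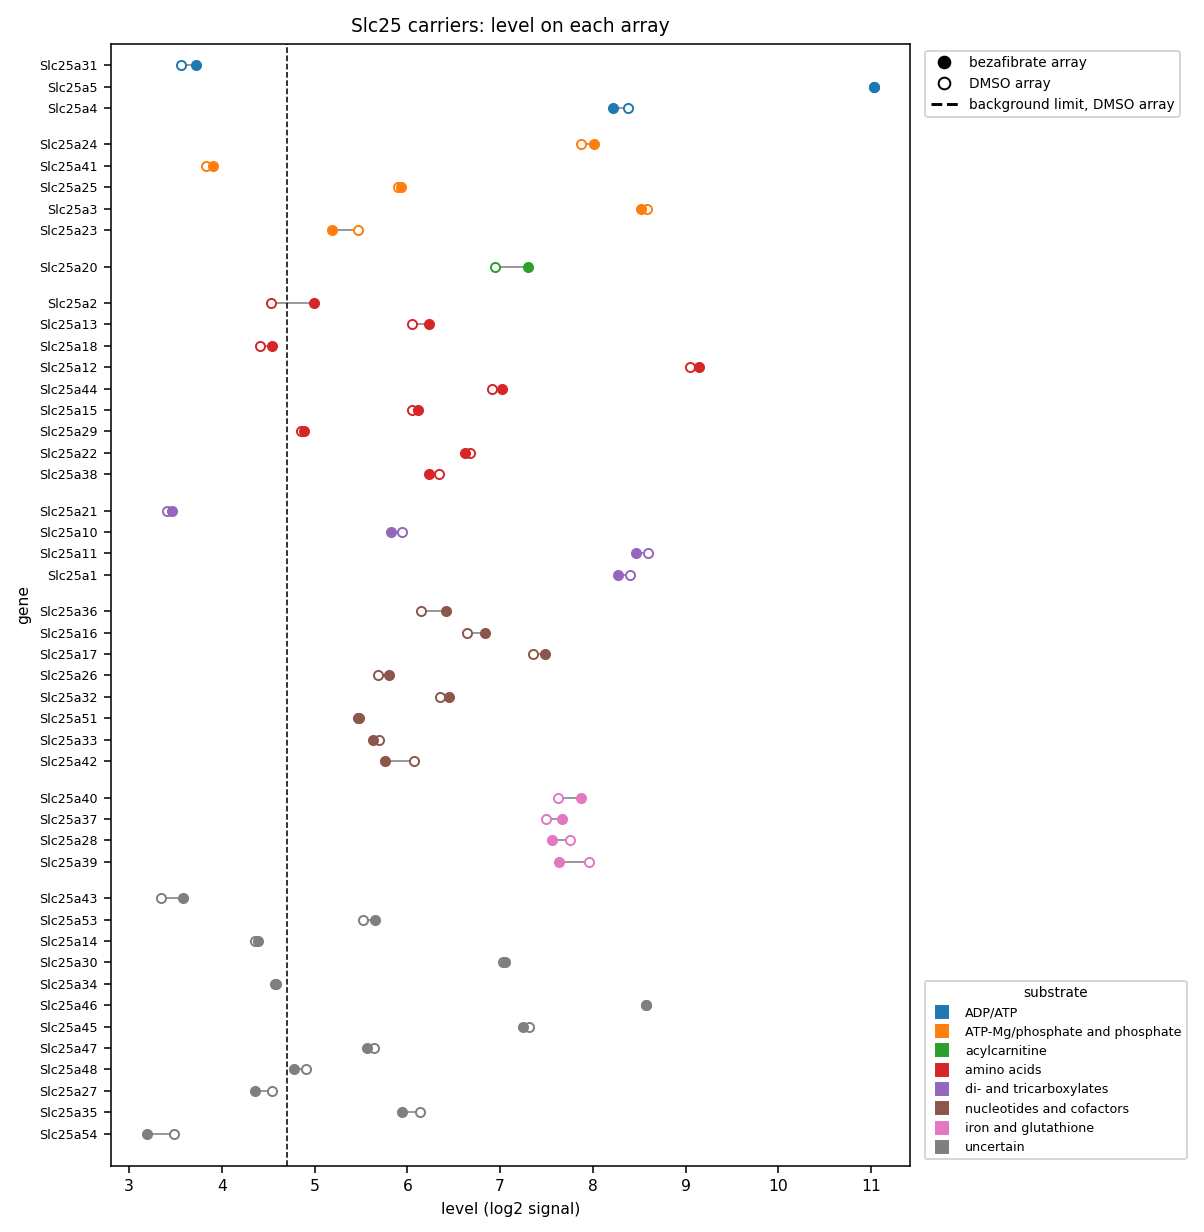
Level of each Slc25 gene in log2 signal on the bezafibrate array (filled) and the DMSO array (open), with genes down the page grouped and coloured by substrate. The dashed line is the background limit of the DMSO array at 4.71; 36 of 46 genes lie above the limits of both arrays, and Slc25a2 is the one gene whose points fall on either side.

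The family centred on no difference, as all genes did. A floor was set at each array's median over genes (4.85 with bezafibrate and 4.88 with DMSO), to be passed on the brighter array, and 37 carriers passed it, of which 18 were higher with bezafibrate, 17 lower and 2 exactly equal. Of the 11446 genes above the floor, 48.4% were higher and 49.6% lower. The median log2 ratio was 0 for the carriers and 0 for all genes above the floor. No carrier reached a 1.5-fold difference in either direction, a limit that 0.664% of genes passed upward and 0.524% downward. At a lesser limit, a log2 ratio of 0.32 in size, 2 carriers were higher (Slc25a2 and Slc25a20) and 1 was lower (Slc25a39), where 5.83% of all genes above the floor were that much higher and 6.33% that much lower. Read against those shares, 2 and 1 of 37 are no more than all genes gave. Of the 37, Slc25a2 and Slc25a29 passed the floor on the bezafibrate array alone and Slc25a48 on the DMSO array alone. Among the 34 carriers above the floor on both arrays, 16 were higher and 16 lower, with 1 (Slc25a20) past the lesser limit upward and 1 (Slc25a39) downward, where 5.13% of genes chosen in that way were that much higher and 5.39% that much lower. In 95% of all genes above the floor the ratio lay between −0.42 and 0.41.

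**Figure D2:**
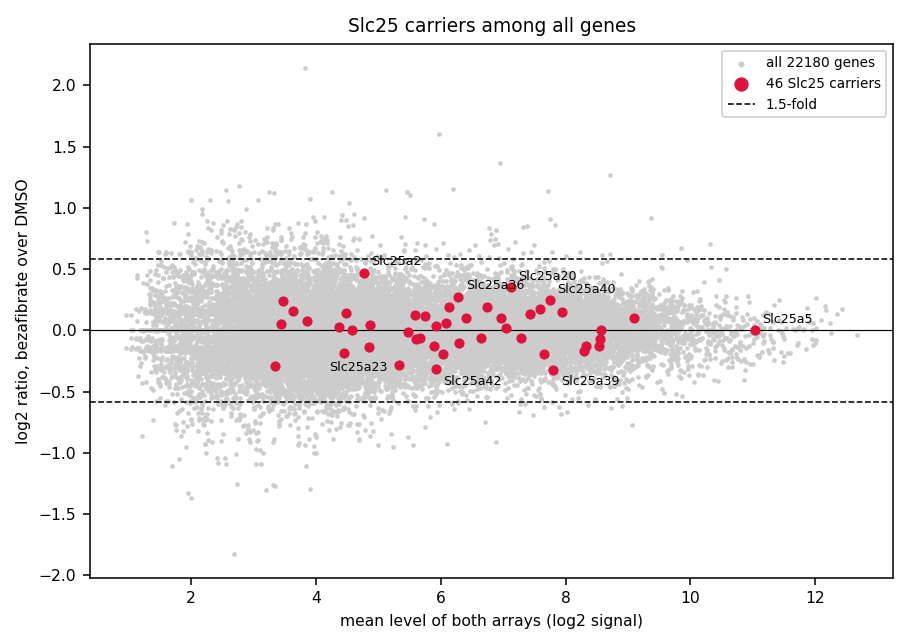
Log2 ratio of bezafibrate over DMSO against the mean level of both arrays in log2 signal, for all 22180 genes (grey) and the 46 Slc25 carriers (red), with 1.5-fold differences dashed. Every carrier lies inside the 1.5-fold lines, and the labelled genes include Slc25a20 at 0.35, Slc25a39 at −0.32 and Slc25a2 at 0.47, whose DMSO level was within background.

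The acylcarnitine carrier was higher with bezafibrate. Slc25a20 (probe set 17521875), which takes acylcarnitines into the matrix in exchange for free carnitine, had a level of 7.30 with bezafibrate and 6.95 with DMSO, a log2 ratio of 0.35 or 1.28-fold. Of all genes above the floor, 95.7% had a lower ratio. Among genes of like mean level (1 of 10 classes of equal size), however, 95% of ratios lay between −0.38 and 0.43, and Slc25a20 was inside that range. Its ratio was 0.34 with quantile normalization or with loess on level, and 0.35 with the trend of level and gene length subtracted.

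Slc25a20 works between the carnitine palmitoyltransferases, and their genes were set beside it. Cpt1a, which makes acylcarnitines at the outer membrane, had a level of 9.02 with bezafibrate and 8.39 with DMSO, a ratio of 0.63. Cpt2, which turns them back into acyl-CoA in the matrix, had 6.56 with bezafibrate and 6.43 with DMSO, a ratio of 0.13. Crat, the acetyltransferase for short-chain acylcarnitines, went the other way, with 5.71 with bezafibrate and 5.98 with DMSO (ratio −0.27), and a second probe set had −0.19. These 4 genes, with Slc25a20 among them, thus had ratios from −0.27 to 0.63, and of these Cpt1a alone differed by over 1.5-fold. After subtraction of the median ratio of genes of like level and length, the ratio of Cpt1a was 0.53, inside the 1.5-fold limit (0.58 on the log2 scale).

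Since bezafibrate acts through PPARs, the promoter of Slc25a20 is shown with its best match to the direct repeat that PPARs bind with their partner RXR. The sequence is from RefSeq (GRCm38.p6, chr9:108661886-108662185, + strand), runs 5′ to 3′ from 250 bases before the gene's start to 50 bases after it, and has the match in capitals.
Slc25a20: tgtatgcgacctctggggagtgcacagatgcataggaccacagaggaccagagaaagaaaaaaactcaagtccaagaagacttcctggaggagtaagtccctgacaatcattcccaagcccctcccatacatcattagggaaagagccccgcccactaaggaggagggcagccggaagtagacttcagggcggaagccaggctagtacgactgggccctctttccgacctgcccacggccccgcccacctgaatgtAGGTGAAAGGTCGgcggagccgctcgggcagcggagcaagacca

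The motif searched was the half-site AGGTCA repeated in the same direction with 1 free base between, 12 fixed letters in all, on both strands, and a match with at most 2 mismatches was counted. RefSeq promoters were found for 36 of the 46 carriers, 46 promoters in all. Of these, 3 held such a match, those of Slc25a20, Slc25a45 and Slc25a47, against 3.86% of 32851 mouse promoters of the same length. The matches follow in the motif's direction, with capitals for the bases that match it.
Slc25a20: AGGTgAaAGGTCg
Slc25a45: AGGTCAgAGGagA
Slc25a47: AtGTgAgAGGTCA

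Counted from 1 at the motif's 5′ end, the match of Slc25a20 carries C5G and A13G, that of Slc25a45 T11A and C12G, and that of Slc25a47 G2T and C5G. Counted from the gene's start, the match of Slc25a20 begins at base 7, that of Slc25a45 at −50 and that of Slc25a47, on the opposite strand, at −153. Slc25a45 had a level of 7.25 with bezafibrate and 7.31 with DMSO, and Slc25a47 had 5.57 with bezafibrate and 5.64 with DMSO. Whether a match bears on any ratio was not tested. A match of this kind describes letters in a window and shows no binding.

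The ADP/ATP carriers, which exchange matrix ATP for cytosolic ADP, were represented by the forms of Slc25a5 and Slc25a4. Slc25a5, known as the form of dividing cells, had a level of 11.03 on both arrays, and the values were exactly equal. Slc25a4, the main form of heart and muscle, had 8.22 with bezafibrate and 8.38 with DMSO, a ratio of −0.17. After subtraction of the median ratio in their class of level and length, Slc25a4 was at −0.039 and Slc25a5 at 0.17. Slc25a31, a form known from testis, was within background at 3.72 with bezafibrate and 3.56 with DMSO. Exactly equal values on both arrays occurred in 1.95% of genes above the floor, and on 5.63% of all probe sets with a value.

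Phosphate and the ATP-Mg carriers divided evenly above the floor. Slc25a3, the phosphate carrier that feeds ATP synthase, had 8.51 with bezafibrate and 8.59 with DMSO. Of the calcium-regulated carriers that exchange ATP-Mg for phosphate, Slc25a24 had 8.02 with bezafibrate and 7.87 with DMSO, a ratio of 0.15. Slc25a23, of the same kind, had 5.19 with bezafibrate and 5.47 with DMSO, a ratio of −0.28. The third of them, Slc25a25, was close to level, at 5.93 with bezafibrate and 5.90 with DMSO. Slc25a41, a further relative, was within background at 3.90 with bezafibrate and 3.83 with DMSO. The 4 genes above the floor had a median ratio of −0.02.

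Of 8 carriers of amino acids above the floor, 6 were higher with bezafibrate and 2 lower, with a median ratio of 0.08. Slc25a2 and Slc25a29 passed the floor on the bezafibrate array alone. Of the 6 above it on both arrays 4 were higher, where 48.4% of all genes chosen in that way were higher. Slc25a12 and Slc25a13, which exchange aspartate for glutamate in the malate-aspartate shuttle, were both higher. Slc25a12 had 9.15 with bezafibrate and 9.04 with DMSO (ratio 0.10), and Slc25a13 had 6.23 with bezafibrate and 6.04 with DMSO (ratio 0.19). After subtraction of the median ratio in their class of level and length, Slc25a12 was at 0.004 and Slc25a13 at 0.07. Slc25a44, which carries branched-chain amino acids, had 7.02 with bezafibrate and 6.92 with DMSO. Slc25a15, the ornithine carrier of the urea cycle, had 6.11 with bezafibrate and 6.05 with DMSO.

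A second ornithine carrier lay near background. Slc25a2 (probe set 17353792) had a level of 5.00 with bezafibrate and 4.53 with DMSO, a log2 ratio of 0.47. The DMSO level was within background, so the size of this ratio rests on a reading that cannot be told from background. The central 95% of ratios in its own class of mean level ran from −0.47 to 0.43. Slc25a29, a carrier of basic amino acids, was just above the limits at 4.89 with bezafibrate and 4.85 with DMSO.

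The lower carriers of this class were Slc25a38 and Slc25a22. Slc25a38, which brings in glycine for haem synthesis, had 6.23 with bezafibrate and 6.34 with DMSO, a ratio of −0.11. Slc25a22, which imports glutamate, had 6.62 with bezafibrate and 6.68 with DMSO. Its relative Slc25a18 was within background, at 4.54 with bezafibrate and 4.41 with DMSO.

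The carriers of di- and tricarboxylates that these cells read were lower by nearly the same amount. Slc25a1, which exports citrate for fatty acid and sterol synthesis, had 8.27 with bezafibrate and 8.40 with DMSO. Slc25a11, which exchanges 2-oxoglutarate for malate in the malate-aspartate shuttle, had 8.46 with bezafibrate and 8.59 with DMSO. Slc25a10, which exchanges malate or succinate for phosphate, had 5.82 with bezafibrate and 5.95 with DMSO. All 3 ratios were between −0.13 and −0.12, inside the central 95% of all genes, and 27.1% of genes above the floor had a ratio lower than that of Slc25a1. Slc25a21, a carrier of 2-oxoadipate, was within background on both arrays, at 3.46 with bezafibrate and 3.41 with DMSO. After subtraction of the median ratio in their class of level and length, Slc25a1 was at 0.04 and Slc25a11 at 0.05, whereas Slc25a10 stayed lower at −0.07.

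**Figure D3:**
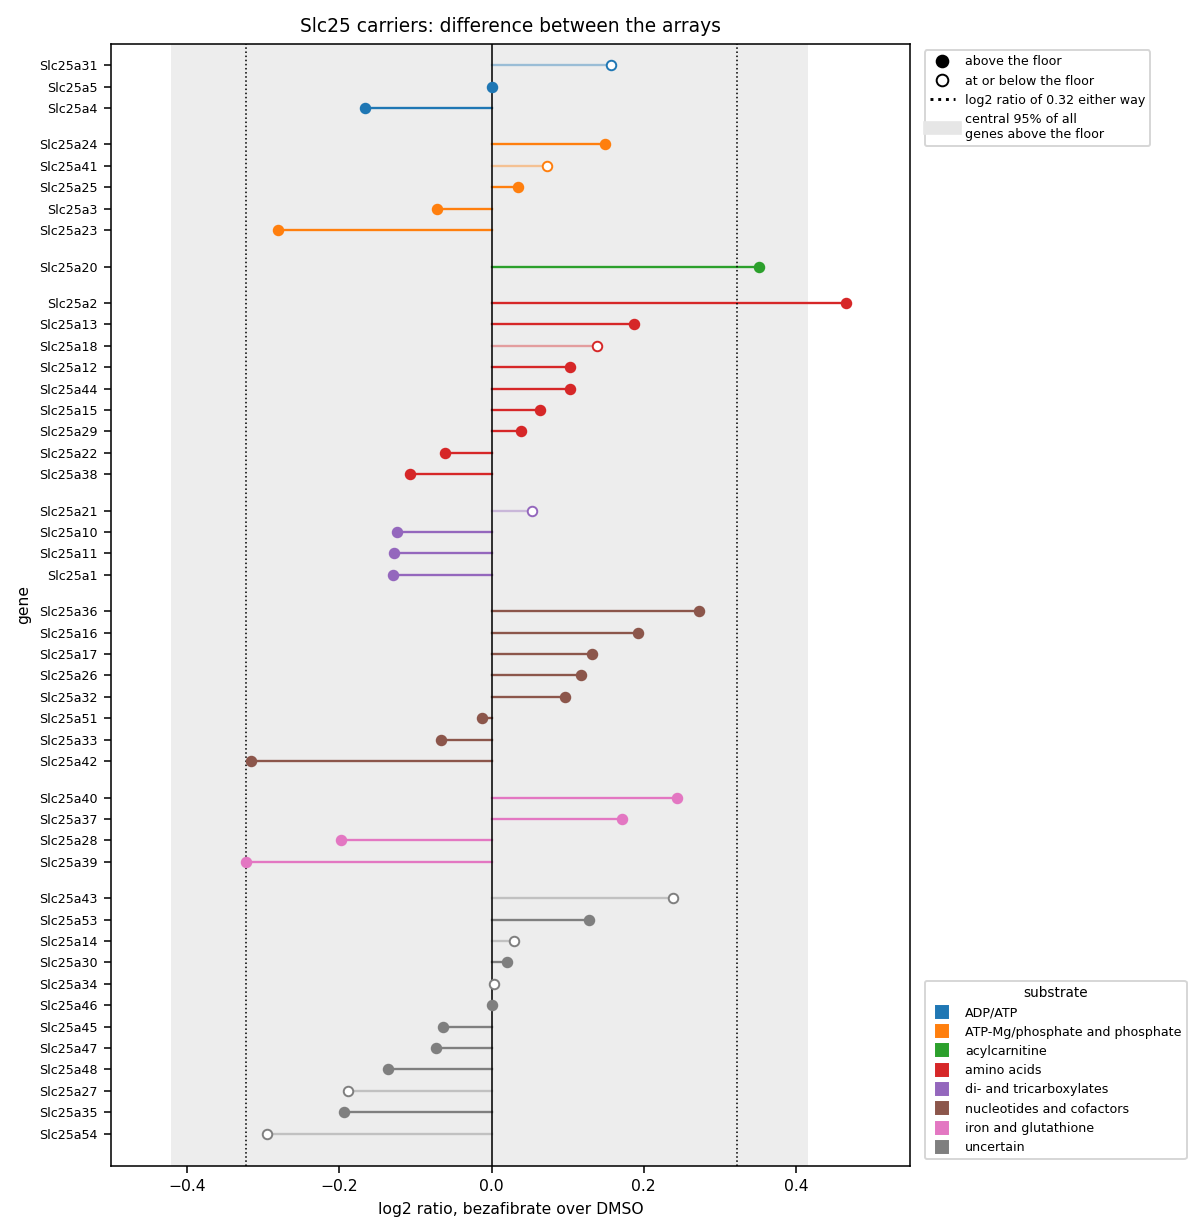
Log2 ratio of bezafibrate over DMSO for each Slc25 gene, grouped and coloured by substrate, with filled points for the 37 genes above the floor and open points for the others. Dotted lines mark log2 ratios of 0.32 in size and the grey band the central 95% of all genes above the floor, from −0.42 to 0.41; Slc25a2, at 0.47 with a DMSO level within background, is the one carrier drawn outside the band.

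Of the carriers of nucleotides and cofactors, 5 of 8 were higher with bezafibrate and 3 lower. Of all genes above the floor 48.4% were higher, and of those longer than 21491 bp (the carriers' median length) 61.4%. The genes of this class had a median length of 29087 bp. The class median ratio was 0.11, and 0.036 with the trend of level and length subtracted. Slc25a36, a pyrimidine nucleotide carrier, had 6.41 with bezafibrate and 6.14 with DMSO, a ratio of 0.27. Its relative Slc25a33 had 5.63 with bezafibrate and 5.70 with DMSO. Slc25a16, linked to coenzyme A in the matrix, had 6.83 with bezafibrate and 6.64 with DMSO, a ratio of 0.19. Slc25a42, which brings in coenzyme A itself, was opposite to it, with 5.76 with bezafibrate and 6.08 with DMSO. Its ratio of −0.316 fell just short of the lesser limit, which is 0.322 unrounded.

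The other cofactor carriers differed little. Slc25a17, which serves peroxisomes and not mitochondria, had 7.49 with bezafibrate and 7.36 with DMSO. Slc25a26, the carrier of S-adenosylmethionine for methylation in the matrix, had 5.80 with bezafibrate and 5.68 with DMSO. Slc25a32, linked to folate and FAD, had 6.44 with bezafibrate and 6.35 with DMSO. These had ratios of 0.10 to 0.13, and Slc25a51, which imports NAD+, had one of −0.01, with 5.47 with bezafibrate and 5.48 with DMSO.

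Iron and glutathione carriers split within each substrate. Slc25a39 (probe set 17270193), a glutathione carrier, had 7.64 with bezafibrate and 7.96 with DMSO, a ratio of −0.322 that just passed the lesser limit. Slc25a40, its close relative, had 7.87 with bezafibrate and 7.62 with DMSO, a ratio of 0.24. For iron, Slc25a28 (mitoferrin 2) had 7.56 with bezafibrate and 7.75 with DMSO, a ratio of −0.20. Slc25a37 (mitoferrin 1), best known from red cell precursors, had 7.67 with bezafibrate and 7.50 with DMSO, a ratio of 0.17. The glutathione carriers' ratios thus lay 0.57 apart and the mitoferrins' 0.37 apart, with the signs opposed in both. After subtraction of its class median of level and length, the ratio of Slc25a39 was −0.19, inside the limit of 0.32, and Slc25a42 at −0.33 was then the only carrier past it downward.

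Among carriers of uncertain substrate 7 were above the floor, 2 higher, 4 lower and 1 equal, with a median ratio of −0.06. Of all genes above the floor 48.4% were higher and 49.6% lower. Slc25a46, which acts at the outer membrane on mitochondrial shape, had 8.57 on both arrays. Slc25a30, akin to the uncoupling proteins, had 7.05 with bezafibrate and 7.03 with DMSO. The lowest ratio of the class above the floor was that of Slc25a35, at −0.19 (5.95 with bezafibrate and 6.14 with DMSO). A further probe set that names Slc25a35 together with Rangrf had a ratio of −0.23. Slc25a53 was the highest above the floor, at 0.13, and Slc25a48 had 4.77 with bezafibrate and 4.91 with DMSO, close to the limits. The 5 within background, Slc25a14, Slc25a27, Slc25a34, Slc25a43 and Slc25a54, had ratios from −0.29 to 0.24, for which no level above background stands behind either array.

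Pairs of carriers that share a substrate were then compared, a choice made after the values were seen. Of 8 such pairs, 7 had both genes above the floor, and in 4 of the 7 the genes went opposite ways. Of all genes above the floor 48.4% were higher and 49.6% lower, so genes paired without regard to substrate would often be opposed too. Whether pairs that share a substrate differ from other pairs in this was not tested. In those 4 the gap between the ratios was 0.57 for Slc25a40 over Slc25a39, 0.43 for Slc25a24 over Slc25a23, 0.37 for Slc25a37 over Slc25a28 and 0.34 for Slc25a36 over Slc25a33. The ornithine carriers were both above 0, at 0.47 for Slc25a2, with its DMSO level within background, and 0.06 for Slc25a15. In every opposed pair the longer gene was the higher one, as it was in 5 of the 7 pairs. Slc25a40 spans 32110 bp and Slc25a39 5707 bp in the RefSeq annotation of GRCm38.p6, and Slc25a37 spans 43697 bp and Slc25a28 11206 bp. After the same subtraction of class medians, the gap was 0.40 for the glutathione carriers and 0.25 for the mitoferrins.

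Across the family the ratio moved with gene length, as it did across all genes. Of 18 carriers longer than 21491 bp, the median of the carriers above the floor, 14 were higher and 3 lower, whereas of the 19 at or under that length 4 were higher and 14 lower. All genes above the floor divided the same way: 61.4% of longer genes were higher, and 61.3% of the genes at or under that length were lower. Ratio and length had a Spearman's rho of 0.51 over the 37 carriers and 0.28 over 11432 genes, given as descriptions, since all points share the same 2 arrays. Pearson's r with the log10 of length was 0.31 for the carriers. Over the 34 carriers above the floor on both arrays, which leave out Slc25a2 (1346 bp), rho was 0.69 and r was 0.61. What the trend comes from was not tested.

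**Figure D4:**
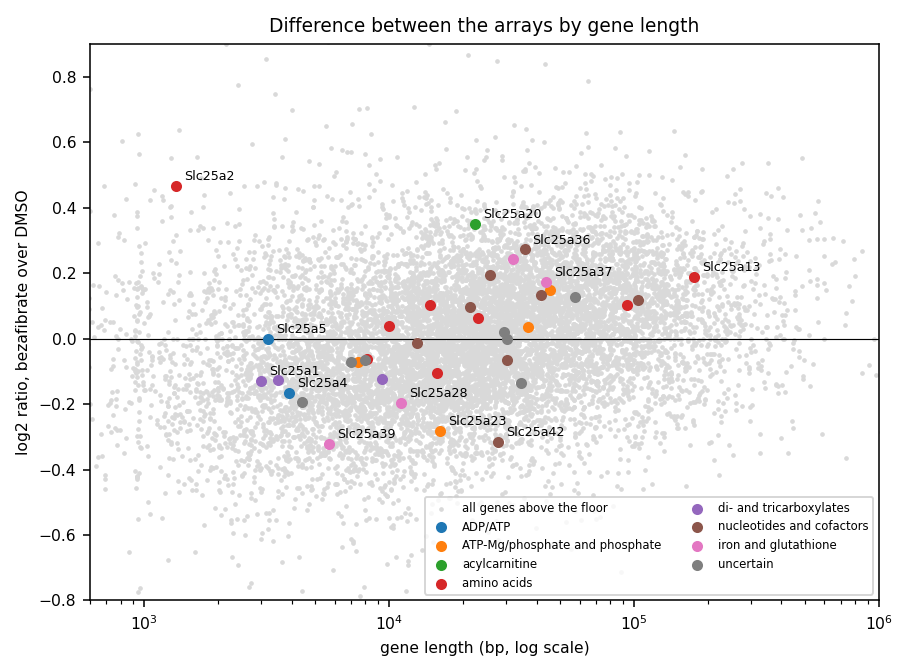
Log2 ratio of bezafibrate over DMSO against gene length in bp (log scale) for the 37 Slc25 carriers above the floor, coloured by substrate, over all genes above the floor that fall within the axes (grey). Carriers longer than 21491 bp lie mostly above 0 (14 of 18) and shorter ones mostly below it (14 of 19).

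Genes that work with the carriers were described from lists. Carrier proteins are made in the cytosol and reach the inner membrane through the TOM complex, small TIM chaperones and the TIM22 insertase. Of the 12 genes of this route 10 were lower with bezafibrate. Of all genes above the floor 49.6% were lower, and of those at or under 21491 bp 61.3%. The median ratio of the import genes was −0.16, against 0 for the carriers. By 0.32 or more on the log2 scale 4 of 12 were lower, as 6.33% of all genes above the floor were. These were the small TIM genes Timm10 at −0.58 (5.98 with bezafibrate and 6.56 with DMSO), Timm8a1 at −0.47, Timm13 at −0.43 and Timm8b at −0.36, named after their values were seen. Timm9, also a small TIM gene, had only −0.17, and the insertase genes Timm22 and Timm29 had −0.08 each. Other probe sets of Timm8a1 had −0.22 and 0.00. Agk, a lipid kinase that is also part of the TIM22 complex, had the highest ratio at 0.318, just short of the lesser limit (0.322 unrounded). Tomm70a, the receptor for carrier precursors, had 0.07. The genes of the list were short, with a median length of 6902 bp, and their median was −0.08 once class medians of level and length were subtracted. Timm13 was then at −0.28 and Timm8b at −0.18, inside the limit of 0.32, and Timm10 at −0.50 and Timm8a1 at −0.36 were past it.

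Inner membrane transporters outside the family had a median ratio of −0.09, with 8 of 11 lower and 3 higher above the floor. Of all genes above the floor 49.6% were lower and 48.4% higher. Mpc1, a subunit of the mitochondrial pyruvate carrier, was the lowest, with 8.32 with bezafibrate and 8.78 with DMSO (ratio −0.46), and its second probe set had −0.19. Sfxn2, a sideroflexin, had −0.24. The highest were Mcu, the pore of the calcium uniporter, at 0.08 and Abcb10, a transporter of the haem pathway, at 0.07. The partner gene Mpc2 was not analysed here.

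Enzymes of the shuttles had a median ratio of −0.05, with 4 of 11 higher and 7 lower, against 48.4% and 49.6% of all genes above the floor. Cpt1a was the highest, and Me2, the mitochondrial malic enzyme, followed at 0.16. Crat was the lowest and Got1, the cytosolic aspartate aminotransferase of the malate-aspartate shuttle, had −0.25. Matrix enzymes that use carried substrates had a median of −0.03, from Ogdh at 0.17 and Bcat2 at 0.08 down to Alas1 at −0.11 and Shmt2 at −0.12. Of family members that bear other names, Mtch1 had a ratio of −0.24 and Mtch2 one of 0.00, whereas Ucp1 and Ucp3 were within background and Ucp2 was not analysed here.

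**Figure D5:**
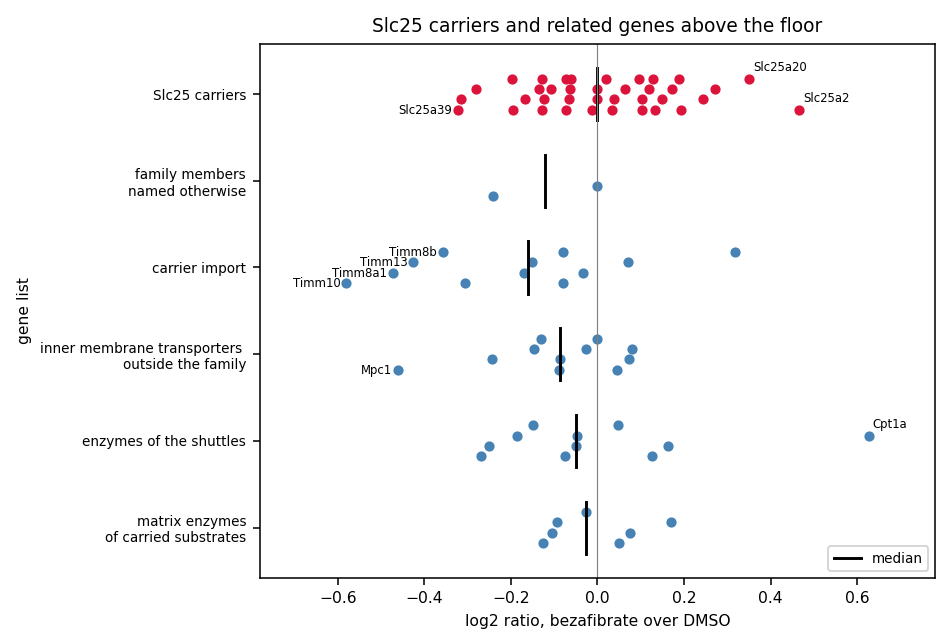
Log2 ratio of bezafibrate over DMSO for the 37 Slc25 carriers above the floor (red) and for genes above the floor in 5 related lists (blue), with the median of each list as a black bar. Genes past a log2 ratio of 0.32 in size are labelled; the carriers centre on 0 and the import genes on −0.16.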

How the data were processed

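Per the labels' protocols, cDNA was made from each culture's total RNA by whole-transcript amplification and read on an Affymetrix array. The deposited values are log2 signals, and the submitters' processing notes name RMA and Affymetrix Expression Console; versions and build were not given in the sources used here, and the log2 scale was read from the values (column medians 4.55 for bezafibrate and 4.58 for DMSO). RMA removes shifts shared by most genes and shrinks differences of dim genes. The number of arrays, 1 per group, limits the precision.

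Of 41801 probe sets, 33793 had values and 23521 named exactly 1 gene in the platform annotation. The probe set with the highest mean stood for a gene. Gene lengths and promoters came from RefSeq (GRCm38.p6), and all 46 carriers had a length. The trend with level and length was removed by subtracting the median of 10 by 10 classes. Members, lists and alternatives were chosen with earlier results of these data known. Every carrier is named, with up to 2 highest and 2 lowest genes above the floor of each related list. For the import genes all 4 past the lesser limit are named, with Timm9, Timm22 and Timm29 beside them, a choice made after their values were seen. Slc25a20, Slc25a4, Slc25a5, Slc25a1, Ucp2, Cpt1a, Cpt2 and Crat are always named. The promoter motif and the carrier pairs were chosen after the values were seen. The alternatives changed the floor, the normalization, the choice of probe set, the list summary and the trend with level and length. Calculations used Python 3.11.15, numpy 2.4.6, pandas 2.3.3 and statsmodels 0.14.6, with matplotlib 3.10.9 for plots.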

Additional observations from a re-analysis of the deposited data

How the results depend on the processing

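Each carrier has 1 probe set, so the mean or the smallest ratio of a gene's probe sets could not change it. The carriers' median ratio stayed between 0 and 0.03 under the 8 other alternatives of the floor, normalization, summary, trend and shared probe sets, and the count past 1.5-fold stayed at 0 under the 6 of them that give counts. With the floor to be passed on both arrays, chosen after seeing the data, 1 carrier in place of 2 was higher by at least 0.32 on the log2 scale. With the floor at the 75th percentile, which leaves 18 carriers, 9 were higher, 7 lower and 1 (Slc25a20) higher by at least 0.32 on the log2 scale. Medians of small substrate classes changed sign. That of ATP-Mg and phosphate carriers was 0.039 with that floor, 0.034 with no floor, 0.034 without its farthest member and 0.00069 with the trend of level and length subtracted. That of iron and glutathione carriers was 0.17 without its farthest member. With the trend subtracted, the ADP/ATP median was 0.067, the di- and tricarboxylate median 0.045 and the median of matrix enzymes 0.0024; the cause was not tested. The median of nucleotide and cofactor carriers was 0.036 with the trend subtracted and 0.052 as a mean, and with the trend subtracted that of iron and glutathione carriers was −0.036 and that of carriers of uncertain substrate −0.014. With that trend subtracted 23 carriers were higher and 14 lower. With background at the 99th percentile of the receptor genes, an alternative chosen after seeing the data, 28 carriers in place of 36 were above it on both arrays. No paired analysis was possible because each group has 1 array. Without replicates, ratios of the size seen here cannot be set against the spread between cultures, and the receptor genes' ratios had a robust SD of 0.31.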

Other observations

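Some carrier genes lie next to each other among protein-coding genes of the RefSeq annotation (GRCm38.p6), 4 pairs in all. In 3 of the 4 pairs 1 gene was above background and the other within it on both arrays. Slc25a5 had a level of 11.03 on both arrays, beside Slc25a43 at 3.58 with bezafibrate and 3.35 with DMSO. Slc25a24 had 8.02 with bezafibrate and 7.87 with DMSO, beside Slc25a54 at 3.19 with bezafibrate and 3.49 with DMSO. Slc25a23, above background, lay beside Slc25a41, within it. In the pair of Slc25a29 and Slc25a47 both were above background, with ratios of 0.04 and −0.07. Slc25a29 had 4.89 with bezafibrate and 4.85 with DMSO, and Slc25a47 had 5.57 with bezafibrate and 5.64 with DMSO. With background at the 99th percentile of the receptor genes, Slc25a23, Slc25a29 and Slc25a47 were within it on both arrays. Whether other neighbouring genes differ in this way was not tested.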
